A study of Mus musculus with 38 samples.

Results

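Tumors that arose in livers expressing an activated YAP mutant were compared with livers of the same genotype after 4 weeks of induction, the stage that the study calls pretumoral. The comparison used 12 of the 38 liver RNA libraries of the study: 8 libraries labeled as tumors and 4 tet-YAP libraries of the 4-week stage, chosen by the group named in their column. All 12 carried LAP-tTA and tet-YAP. LAP-tTA places the tetracycline transactivator under the LAP promoter for expression in the liver, and tet-YAP is a YAP transgene placed at the Col1A1 locus. The labels give no induction time or age for the tumors, and they do not say whether tumors shared a mouse or what tissue surrounded them. The p-values therefore measure the spread between these libraries. WT livers of the same system (3 libraries) are quoted for their levels only.

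YAP is the transcriptional coactivator held in check by the Hippo kinases. When these kinases are quiet, YAP enters the nucleus and acts through the TEAD family of DNA-binding factors. Its best-known liver effects are growth of the organ, loss of mature hepatocyte features and the appearance of biliary or progenitor features in hepatocytes. A question the comparison addresses is what separates the tumor from liver that has only begun to respond to YAP.

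Levels are in RPKM, reads scaled by gene length and by library depth, and differences are given as tumor minus tet-YAP on the log2(RPKM + 0.5) scale, which understates changes of low genes. A gene was called at a Benjamini-Hochberg adjusted p under 0.05 by limma and an absolute log2 difference of at least 0.5. Sex pattern and an upper limit of the values touch many results. All 8 tumors showed the female pattern, with Xist at 11.8 to 18.1 RPKM and Y-linked genes near 0, while 3 of the 4 tet-YAP livers showed the male pattern and library 2 the female one. Stage and sex are thus largely confounded, and values from a fit with the sex pattern as covariate are given where they change a count. That fit takes a single sex term from all 21 libraries of the system, including livers with a Myc transgene. Among livers with both transgenes, Krt7 was at 21.4 and 14.5 RPKM in the female-pattern libraries and at 1.24 RPKM in the male-pattern one. The sex term can therefore hold differences other than sex. How much of a shift with the covariate belongs to sex was not tested. In each of the 12 libraries the sixth-highest gene stood at 1541 to 1631 reads per kilobase, which in RPKM was 28.7 to 38.6 in tumors and 32.9 to 45.8 in tet-YAP livers. Values near this ceiling, such as those of albumin, can understate or hide a difference, and an abundant gene can read lower in the deeper tumor libraries. In bulk tissue, fewer cells of a type and less RNA per cell cannot be told apart.

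Of 12591 genes tested, 1245 were higher in tumors (9.89%) and 1954 were lower (15.5%). In 6.6% of the genes every tumor lay above every tet-YAP liver, and in 12.9% every tumor lay below. The balance of directions moved with the scaling. After rescaling of the libraries by their median ratio, 1662 genes were higher (13.2%) and 1514 lower (12%), and the median log2 difference of all genes moved from -0.07 to 0.03. With the sex pattern as covariate, 1032 genes were higher (8.2%) and 1171 lower (9.3%), of which 899 and 1108 were shared with the calls above.

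The genes with the highest differences were fetal growth, epithelial and transport genes that stood at low levels in the 4-week livers. Igf2, a fetal insulin-like growth factor, stood at 0.17, 0.262, 0.333 and 0.529 RPKM in the tet-YAP livers, whereas the tumors ran from 25 through a median of 27.4 to 35.7 RPKM. It had the highest log2 difference (5.12 ± 0.32, SE, adjusted p = 3.9e-09 by limma), although its level in tumors reached the ceiling. Krt7, a keratin of bile ducts, was at 0.218, 0.182, 0.297 and 0.188 RPKM in tet-YAP livers and at 7.62 to 23.5 RPKM, median 18.7, in tumors (log2 difference 4.47 ± 0.44, adjusted p = 4.8e-07). Cldn6, a claudin of embryonic epithelia, was at 0.153, 0.103, 0.49 and 1.64 RPKM at 4 weeks and at 9.88 to 30.5 RPKM, median 23.3, in them (4.38 ± 0.36). No tumor overlapped a tet-YAP liver for any of these genes, which was a condition of their choice. Lrp2, the megalin endocytic receptor, lay between 0.0239 and 0.0329 RPKM in tet-YAP livers and between 2.94 and 12.2 RPKM in tumors. The other genes with a high and non-overlapping difference were Slc23a3 (4.03), Bex4 (3.94), Ager (3.74), the gamma-glutamyl transferase Ggt1 (3.57), the protease inhibitor Spint1 (3.45), Afp (3.44), Flrt3 (3.35) and the Wnt ligand Wnt4 (3.35). All 12 were also called with the sex covariate and after rescaling. As the libraries did not mark strand, reads of overlapping genes cannot be told apart for Igf2 (Igf2os, Mir483), Bex4 (Nxf3) and Flrt3 (Macrod2).

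**Figure D1:**
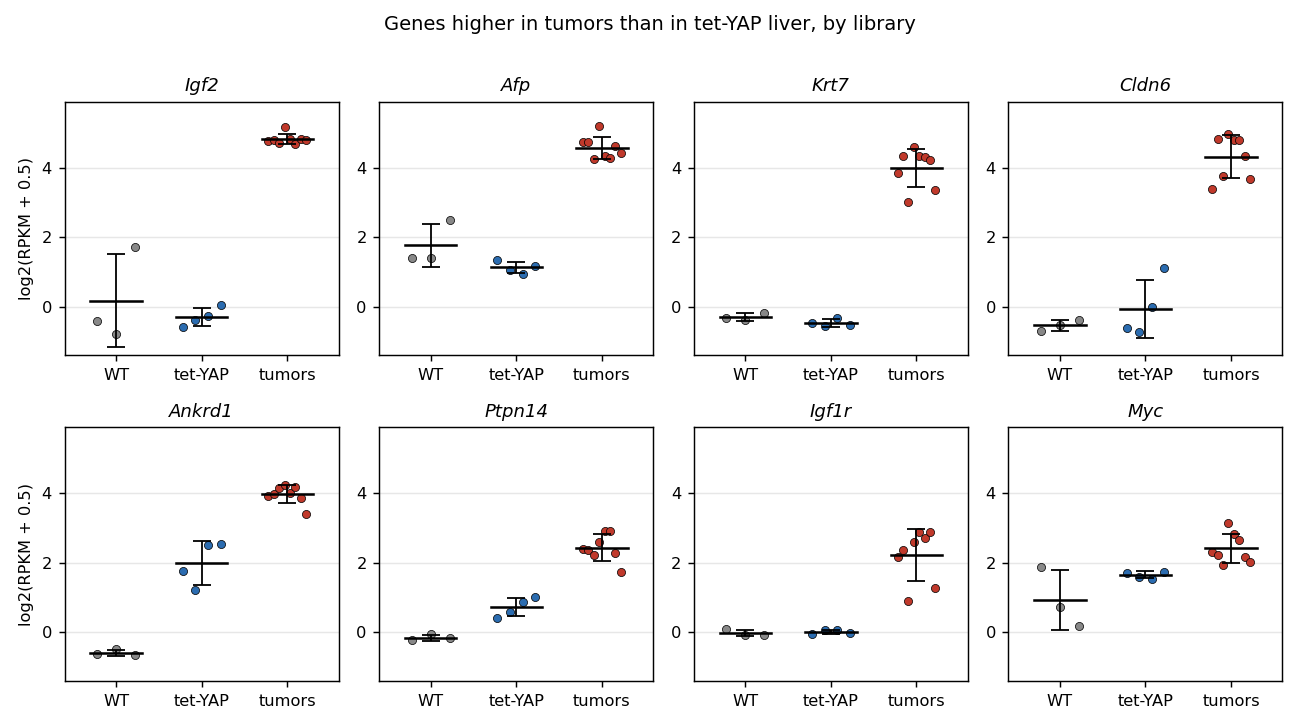
Levels of 8 genes that rose in tumors, as log2(RPKM + 0.5), in WT (3), tet-YAP (4) and tumor (8) libraries, with 1 point per library, the group mean as a line and the SD as a bar. Igf2, Afp, Krt7, Cldn6 and Igf1r were low in WT and 4-week livers and high in tumors, while Ankrd1 and Ptpn14 stood between WT and tumors at 4 weeks.

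Most oncofetal and imprinted genes rose. Of 14 list members tested (6 of them near the ceiling), 11 were higher and 0 lower, with a median log2 difference of 2.47 against -0.07 over all genes, and with the sex covariate the counts were the same. Afp, the fetal counterpart of albumin, stood at 2.02, 1.58, 1.43 and 1.73 RPKM in tet-YAP livers and at 18.3 to 36 RPKM, median 22.5, in tumors (3.44 ± 0.21, adjusted p = 3.9e-09). H19, the maternally expressed noncoding RNA next to Igf2, was at 1.09, 3.28, 2.55 and 3.91 RPKM and then at 11.9 to 38.5 RPKM, median 30.2 (3.23 ± 0.58, adjusted p = 2.9e-04). Both partners of this imprinted pair, which are expressed from opposite parental chromosomes, were therefore high in the same tumors. In WT livers H19 was at 0.355, 0.48 and 13.8 RPKM, the last above tumor 5. Igf2 in the same WT livers was at 0.249, 0.0816 and 2.78 RPKM. Peg3, a paternally expressed zinc finger gene, went from a mean of 4.28 ± 1.24 RPKM (SD, n = 4) to 25.1 ± 3.59 RPKM (SD, n = 8). The RNA-binding proteins Igf2bp1 and Igf2bp3, known from fetal tissue, rose by 2.93 and 1.84 on the log2 scale. Igf2bp1 was 0.106 to 0.387 RPKM at 4 weeks and 1.3 to 7.73 RPKM in them, with tumor 3 the lowest. The receptor Igf1r, which binds Igf2, was at 0.462, 0.545, 0.544 and 0.478 RPKM in tet-YAP livers, close to the WT mean of 0.488 RPKM, and reached 1.37 to 6.97 RPKM, median 5.09, in tumors (2.22 ± 0.31, adjusted p = 2.5e-05). The hepatocyte hormone Igf1 ran the other way. It was at 25.6, 21.7, 21.4 and 19.6 RPKM at 4 weeks and at 4.18 to 15.7 RPKM, median 9.27, in tumors (-1.27 ± 0.24, adjusted p = 3.8e-04).

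Markers of cholangiocytes and liver progenitors followed the same direction, with 11 of 15 tested members higher and 1 lower (median 1.29; 9 and 0 with the sex covariate). Epcam, a surface protein of biliary and progenitor cells, was at 0.448, 0.366, 0.435 and 1.05 RPKM in tet-YAP livers and at 2.36 to 13.9 RPKM, median 8.48, in tumors (2.76 ± 0.35, adjusted p = 8.5e-06). Cd24a rose by 2.47 and the tight junction gene Cldn7 by 3.13 on the log2 scale. These genes were above every tet-YAP liver in all 8 tumors. Krt19, the other classical biliary keratin, did not behave like Krt7. It was at 0.373 to 0.568 RPKM in tet-YAP livers, at 0.436 and 0.422 RPKM in tumors 1 and 8, and at 2.25 to 19.8 RPKM in the other 6 tumors (2.57 ± 0.7, adjusted p = 0.0078), and the call was lost with the sex covariate (adjusted p = 0.052). The list of keratins and junction genes was split, with 4 of 15 higher and 4 lower (median 0), but the sex covariate gave 3 higher and 0 lower. Krt20, a keratin absent from normal liver, was at 0 or up to 0.015 RPKM in tet-YAP livers and at 0.655 to 12.1 RPKM in tumors. Vim, an intermediate filament of mesenchymal cells, rose from 11 ± 1.47 RPKM (SD, n = 4) to 21.2 ± 3.35 RPKM (SD, n = 8).

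Genes of matrix remodelling were higher for 9 of 17 tested members and lower for 1 (median 0.53; 6 and 0 with the sex covariate). The epithelial integrin chain Itgb4 rose from 0.64 ± 0.307 RPKM (SD, n = 4) to 1.99 ± 0.385 RPKM (SD, n = 8). Plaur, the urokinase receptor, was at 1.25, 0.866, 0.93 and 1.49 RPKM and reached 2.26 to 9.95 RPKM in tumors, while the metalloproteinase inhibitor Timp3 rose by 0.91. The hyaluronan receptor Cd44 was the member that fell, from 6.15 to 8.02 RPKM in tet-YAP livers to 0.993 to 4.59 RPKM in tumors (-1.18 ± 0.26, adjusted p = 0.0016). Its call was lost with the sex covariate (adjusted p = 0.077).

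Within the Hippo pathway the called genes were the TEAD factors Tead2, Tead3 and Tead4, the last named after its values were seen, with Amot and Mob1b. Yap1 was at 4.64, 4.24, 4.8 and 4.71 RPKM in tet-YAP livers and at 3.44 to 4.49 RPKM, median 4.1, in tumors (-0.19 ± 0.1, adjusted p = 0.15), beside 4.84 ± 0.303 RPKM (SD, n = 3) in WT. The deposited Yap1 level did not distinguish transgenic from WT livers, and so it could not check the genotype labels. Wwtr1, the YAP paralog TAZ, differed by 0.15 ± 0.12 (adjusted p = 0.37). Tead3 was at 1.14, 1.51, 1.52 and 1.44 RPKM and then at 2.12 to 3.45 RPKM in tumors (0.82 ± 0.14, adjusted p = 1.7e-04), and Tead2 rose by 1.35 ± 0.34 (adjusted p = 0.0044), a call lost with the sex covariate (adjusted p = 0.052). Amot, a scaffold that binds YAP, rose by 0.73 and Mob1b, a cofactor of the LATS kinases, fell by 0.53 on the log2 scale. The Mob1b call did not hold with the sex covariate or after rescaling, where the log2 difference was -0.42 and -0.44. The Mob1b call was also lost without tet-YAP library 3 (-0.50) or without tumors 5 and 6 (-0.48). Over the pathway list, 4 of 16 members were higher and 1 lower, and 2 and 0 with the sex covariate.

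Some target genes of YAP and TEAD were higher still in tumors. Of 20 tested, 7 were higher and 1 lower, with a median of 0.34, and the sex covariate gave 7 and 0. The lower one was Axl, a receptor kinase named after its values were seen, and its call was also lost without tet-YAP library 1 or 3. Ankrd1, a muscle ankyrin repeat protein used as a readout of YAP, was at 2.89, 1.81, 5.16 and 5.3 RPKM in tet-YAP livers and at 10.1 to 18.3 RPKM, median 15.6, in tumors (1.97 ± 0.23, adjusted p = 3.6e-06), while WT livers averaged 0.164 RPKM. Ptpn14, a phosphatase that binds YAP, was at 0.838, 1.01, 1.33 and 1.51 RPKM and then at 2.84 to 7.11 RPKM, median 4.71 (1.71 ± 0.19, adjusted p = 2.3e-06). The 4-week mean of Ptpn14, 1.17 RPKM, was itself above that of WT, 0.4 RPKM, and for both genes no tumor lay inside the tet-YAP range. Tgfb2, Arhgef17 and Igfbp3 rose by 1.89, 1.76 and 1.34 on the log2 scale. Ctgf and Cyr61, the most widely used targets, had smaller differences. Ctgf was at 7.34, 4.16, 9.71 and 9.64 RPKM and then at 9.66 to 14.1 RPKM (0.65 ± 0.16, adjusted p = 0.004), a call that needed the low tet-YAP library 2 (0.40 without it). Cyr61, at 10.3 to 12.8 RPKM before and 12.4 to 17.5 RPKM in tumors, did not pass (0.37 ± 0.16, adjusted p = 0.075). Near the ceiling lay 6 of the 20 targets, Cyr61 and Ankrd1 among them, so their differences can be understated.

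The promoter windows of Ankrd1 and Ptpn14 are shown because these targets rose and held the TEAD core motif. The windows are the 250 bases before the annotated start in RefSeq, build GRCm38.p6, on chr19:36119845-36120094 (minus strand) and chr1:189728018-189728267 (plus strand), printed on the strand of the gene, and capitals mark GGAATG or its reverse complement.
Ankrd1: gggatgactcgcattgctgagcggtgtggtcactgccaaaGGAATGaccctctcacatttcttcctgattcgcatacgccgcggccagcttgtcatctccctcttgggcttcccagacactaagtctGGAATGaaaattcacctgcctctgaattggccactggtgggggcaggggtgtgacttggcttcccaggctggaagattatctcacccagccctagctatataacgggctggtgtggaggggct
Ptpn14: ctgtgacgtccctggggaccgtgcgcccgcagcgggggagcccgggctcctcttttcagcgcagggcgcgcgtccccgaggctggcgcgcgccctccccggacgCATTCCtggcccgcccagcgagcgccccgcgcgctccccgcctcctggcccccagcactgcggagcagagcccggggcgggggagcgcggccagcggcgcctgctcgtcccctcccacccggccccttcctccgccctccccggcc
The motif began 210 and 123 bases before the start in Ankrd1 and 146 bases before it in Ptpn14. Searched on both strands in windows of 250 bases before to 50 after the start, GGAATG was present for 9 of 17 list members with a window (52.9%) and for 16.6% of 27025 genes, a gene counting when any of its windows held it. Of the targets that rose, 5 had a window and 2 held the motif. A match is a description of the sequence and not a measured binding site.

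Myc was higher in every tumor than in every tet-YAP liver. It stood at 2.79, 2.54, 2.4 and 2.86 RPKM at 4 weeks and at 3.31 to 8.34 RPKM, median 4.31, in them (0.76 ± 0.26, adjusted p = 0.028). The separation of the groups was complete, but the call did not survive the removal of tet-YAP library 1, 2 or 3 in turn (adjusted p = 0.058, 0.069 and 0.073) or of tumors 5 and 6 together (adjusted p = 0.073). WT livers had Myc at 3.2, 1.16 and 0.63 RPKM, the first of these above every tet-YAP liver and below every tumor. Mxd1, a partner of Max that opposes Myc, rose from 1.57 ± 0.0887 RPKM (SD, n = 4) to 2.5 ± 0.342 RPKM (SD, n = 8), and the paralog Mycl fell from 2.52 ± 1.12 to 0.89 ± 0.322 RPKM. The Mxd1 difference of 0.52 was close to the threshold and fell to 0.50 and 0.49 without tumor 4 or 6. Within the network list 2 of 10 tested members were higher and 1 lower, and without tumors 5 and 6 the counts were 0 and 1.

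Cell division genes were high at both stages and few were called. The summed level of 24 mitotic genes was 53.8 to 88.2 RPKM in tet-YAP livers and 30.7 to 168 RPKM in tumors, against 6.67 to 10 RPKM in WT. Mki67, the Ki-67 antigen, was at 11.5, 10.4, 8.36 and 7.33 RPKM in tet-YAP livers, at 3.78 to 13.4 RPKM, median 9.91, in tumors and at 0.617 RPKM on average in WT (-0.03 ± 0.32, adjusted p = 0.95). Top2a, a topoisomerase of cycling cells, differed by 0.12 ± 0.35 (adjusted p = 0.82), Ccnb1 by 0.46 ± 0.41 (adjusted p = 0.41) and the mitotic kinase Aurka by 0.71 ± 0.32 (adjusted p = 0.089). For each of these genes the tumors lay on both sides of the tet-YAP range. By limma, 0 of 24 mitotic genes were called in either direction, 1 had an unadjusted p under 0.05, and after rescaling 1 was called higher. Tumor 3 was the lowest library for this list, and without it 3 were called higher, among them Aurka (0.88, adjusted p = 0.018). In the same way 0 of 22 ribosome biogenesis genes were called, with 4 at an unadjusted p under 0.05 and 2 called higher after rescaling. Of 36 DNA replication genes, 0 were higher, none of them at an unadjusted p under 0.05, and 1 was lower.

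Among cyclins D and Cdk inhibitors 4 of 12 were higher and 2 lower, and 2 and 1 with the sex covariate. Ccnd1, the cyclin D most used in liver, was at 19.1, 15.3, 12.5 and 12.5 RPKM in tet-YAP livers and at 3.35 to 10.1 RPKM, median 7.58, in tumors (-1 ± 0.26, adjusted p = 0.006). Ccnd3 rose from 1.61 to 2.08 RPKM up to 2.56 to 4.17 RPKM (0.79 ± 0.12, adjusted p = 7.1e-05). Ccnd2 was at 3.19 to 3.73 RPKM before and 2.12 to 12.6 RPKM in tumors, with values on both sides (0.54 ± 0.3, adjusted p = 0.18), and passed only without tumor 5 among the single libraries left out (0.71, adjusted p = 0.045). The imprinted Cdk inhibitor Cdkn1c was at 1.4, 1.9, 0.715 and 0.681 RPKM at 4 weeks and at 4.84 to 20.6 RPKM in 7 tumors, and tumor 5 was at 0.573 RPKM (2.52 ± 0.59, adjusted p = 0.0027). Its call was lost with the sex covariate (adjusted p = 0.072), as was that of Cdkn2b (1.06 ± 0.33, adjusted p = 0.059 with the covariate). Cdkn1b rose by 0.54, just past the threshold, which it missed without tet-YAP library 4 (0.49), tumor 4 (0.47) or tumor 5 (0.49).

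The genes called in the biosynthesis list all belonged to serine and one-carbon metabolism. Of 16 nucleotide, serine and polyamine genes 5 were higher and 0 lower, with a list median of 0.13, and 4 and 0 with the sex covariate. Phgdh, the first enzyme of serine synthesis, was at 3.33, 1.22, 2.71 and 2.44 RPKM in tet-YAP livers and at 5.02 to 13 RPKM, median 10.8, in tumors (1.9 ± 0.23, adjusted p = 4.6e-06). WT livers averaged 0.412 RPKM, below all 4 tet-YAP livers. The next 2 enzymes, Psat1 and Psph, rose by 1.6 and 1.18, and the mitochondrial folate enzymes Mthfd2 and Mthfd1l by 1.36 and 1.14 on the log2 scale. Phgdh alone of the 5 did not overlap between the groups. For Psat1, tet-YAP library 1 at 6.59 RPKM lay above tumors 3 and 8 at 3.82 and 4.1 RPKM. Mthfd1l was not called with the sex covariate (adjusted p = 0.055), nor Mthfd2 without tet-YAP library 2 (1.22, adjusted p = 0.054).

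Of 17 growth factor signaling genes tested 6 were higher and 2 lower (median 0.13; 7 and 1 with the sex covariate). Erbb2, a receptor tyrosine kinase of the EGF receptor family, was at 0.45, 0.563, 0.789 and 0.956 RPKM and then at 2.29 to 4.96 RPKM, median 3.08 (1.67 ± 0.19, adjusted p = 3.2e-06). The ligand Hbegf rose from 0.915 ± 0.0563 RPKM (SD, n = 4) to 2.7 ± 1 RPKM (SD, n = 8), and the receptor Fgfr3 from 6.47 ± 0.813 to 11.9 ± 1.73 RPKM. Fgfr3 in WT averaged 11.4 RPKM, which is close to the tumors. Among Notch and TGF-beta genes 8 of 17 were higher and 1 lower (median 0.4; 7 and 1 with the covariate). The Notch ligand Jag1, at 3.76 to 8.77 RPKM at 4 weeks, was at 8.89 to 12 RPKM in them (0.74 ± 0.16), and Tgfb3 and the inhibin subunit Inhbb rose by 1.28 and 1.47. The other inhibin subunit Inhba fell from 7.04 ± 2.46 RPKM (SD, n = 4) to 1.76 ± 1.21 RPKM (SD, n = 8).

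**Figure D2:**
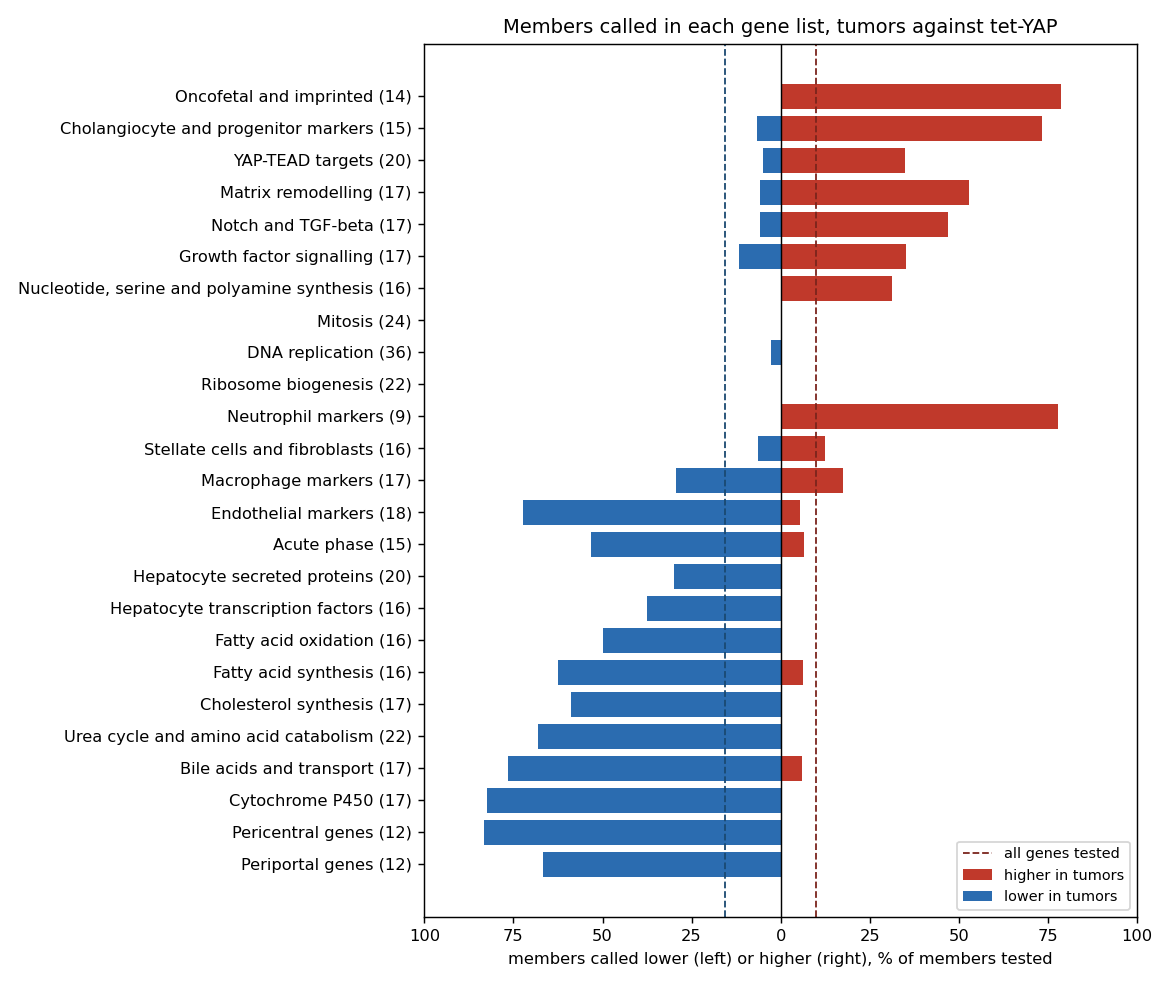
Share of the tested members of each gene list called higher (right) or lower (left) in tumors than in tet-YAP livers, in percent, with the number tested in brackets and dashed lines at the shares over all genes (9.89% and 15.5%). Oncofetal, biliary and neutrophil lists extend to the right, hepatocyte function and endothelial lists to the left, and the Mitosis and Ribosome biogenesis lists have no bar.

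The lowest differences belonged to secreted and detoxifying proteins of mature liver. Ces1f, a carboxylesterase, was at 16.5, 13.4, 12.2 and 9.77 RPKM in tet-YAP livers and at 0.0381 to 0.443 RPKM, median 0.288, in tumors (-4.17 ± 0.41, adjusted p = 4.8e-07). Ces3b and Ces3a, of the same enzyme family, fell by 4.08 and 3.68 and the glycosyltransferase Ugt3a1 by 3.66 on the log2 scale. The pheromone-binding Mup3, Mup17 and Mup21 fell by 4, 3.76 and 3.64. They belong to a family of similar genes, and some of their reads may be shared between copies. Serpina4-ps1, annotated as a transcribed pseudogene, was at 17.4, 4.04, 10.7 and 17.4 RPKM at 4 weeks and at most 0.125 RPKM in any tumor. Saa2, an acute phase apolipoprotein, was at 20.7, 16.9, 18.1 and 24.6 RPKM and then at 0.265 to 4.04 RPKM, median 0.567 (-3.85 ± 0.58). Hsd3b5, Elovl3, Mup21 and the transporter Slco1a1 are known as male-biased in mouse liver. Hsd3b5 stood at 19.2, 15 and 13.9 RPKM in male-pattern tet-YAP livers, at 1.53 RPKM in the female-pattern library and at most 0.0841 RPKM in tumors. Elovl3, which overlaps Pitx3, was listed at 0 in 7 of the 8 tumors. With the sex covariate the log2 difference of Hsd3b5 moved from -4.17 to -2.16 that of Elovl3 from -3.92 to -1.96, that of Mup21 from -3.64 to -1.47 and that of Slco1a1 from -3.57 to -2.82, and all 4 were still called. All 12 genes lay below every tet-YAP liver in all 8 tumors, which was a condition of their choice.

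Genes of bile acid synthesis and transport were mostly lower. Of 17 genes 13 were lower and 1 higher, with a median of -1.82 (11 and 0 with the sex covariate). Cyp7a1, the rate-limiting enzyme of bile acid synthesis, was at 21.5, 19.7, 7.22 and 9.94 RPKM at 4 weeks and at 0.485 to 7.16 RPKM, median 2.09, in tumors (-2.35 ± 0.52, adjusted p = 0.0017). Cyp8b1, which sets the proportion of cholic acid, was at 32.5, 25.1, 28.5 and 24.8 RPKM and then at 0.755 to 11.5 RPKM, median 3.15 (-2.89 ± 0.41, adjusted p = 2.6e-05). Cyp27a1 of the alternative pathway fell by 1.39, the sinusoidal uptake carrier Slc10a1 by 1.9 and the canalicular export pump Abcb11 by 1.82 on the log2 scale. For these 5 genes all 8 tumors lay below the 4-week range. Nr0b2, the nuclear receptor SHP that represses Cyp7a1, was itself at 8.67, 7.06, 9.5 and 4.54 RPKM and then at 0.205 to 2.45 RPKM (-2.29 ± 0.32, adjusted p = 2.1e-05).

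Among the transcription factors of hepatocytes 0 of 16 were higher and 6 lower (median -0.43; 0 and 4 with the sex covariate). Hnf4a, the central factor of the network, was at 29.3, 23.9, 22 and 21.3 RPKM in tet-YAP livers and at 16 to 22.8 RPKM in tumors, a difference that did not pass (-0.29 ± 0.12, adjusted p = 0.073). Foxa1, Ppara and Rxra fell by 0.77, 0.83 and 0.64 on the log2 scale. Near the ceiling lay 4 of the 16, among them Hnf4a, Ppara and Rxra. Such genes can read lower in the deeper tumor libraries. For albumin, Alb, the difference was -0.28 ± 0.14 (adjusted p = 0.13), but its level of 19.4 to 38.5 RPKM was near the ceiling. Of 20 secreted protein genes 18 lay near the ceiling, and 6 of the 20 were lower (3 with the sex covariate). Below the ceiling in tumors, coagulation factor F9 fell from 14.9 to 20 RPKM down to 0.773 to 12.7 RPKM (-2.03 ± 0.43, adjusted p = 0.0013). Complement C9 fell by 0.7, which was not kept with the sex covariate (-0.38, adjusted p = 0.11).

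Cytochrome P450 genes were lower for 14 of 17 members (median -1.56), but 5 were called with the sex covariate, at a median of -1.37, and 9 without tet-YAP library 1. Near the ceiling lay 11 of the 17. Cyp1a2, a xenobiotic enzyme of pericentral hepatocytes, was at 23.6, 22.8, 18.4 and 17.5 RPKM and then at 0.128 to 4.6 RPKM, median 1.62 (-3.38 ± 0.45, adjusted p = 1.4e-05). Cyp2e1, the ethanol-metabolizing enzyme, was at 24.1 to 35 RPKM and then at 3.55 to 19.9 RPKM (-1.33 ± 0.39, adjusted p = 0.013; 0.18 with the covariate). Genes of both liver zones were affected. Pericentral genes were lower for 10 of 12 (median -1.76; 9 with the covariate) and periportal genes for 8 of 12 (median -1.02; 4 with the covariate, 4 also without tet-YAP library 1 or 2). Near the ceiling lay 5 of the 12 pericentral and 7 of the 12 periportal genes. All 8 lower periportal genes also counted in other lists, as did Cyp1a2, Cyp2e1 and Oat among the pericentral ones, so these counts overlap. Notum, a Wnt inhibitor expressed around the central vein, was at 3.6, 5.23, 2.83 and 1.65 RPKM and then at 0.0229 to 0.811 RPKM (-2.2 ± 0.3, adjusted p = 1.8e-05), and WT livers averaged 14.2 RPKM. The ammonium transporter Rhbg of the same zone fell by 1.68. Glul, glutamine synthetase, was at 19.1 to 30.1 RPKM before and 11.8 to 21.3 RPKM in tumors and missed the fold threshold (-0.48 ± 0.18, adjusted p = 0.049), which it reached at -0.57 to -0.51 without tet-YAP library 3 or 4 or without tumor 2, 4, 5 or 6. Axin2, a target of Wnt signaling, differed by -0.49 ± 0.21 (adjusted p = 0.076). On the periportal side Cyp2f2 fell by 1.25 and Hal, the histidine ammonia lyase, by 2.28.

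**Figure D3:**
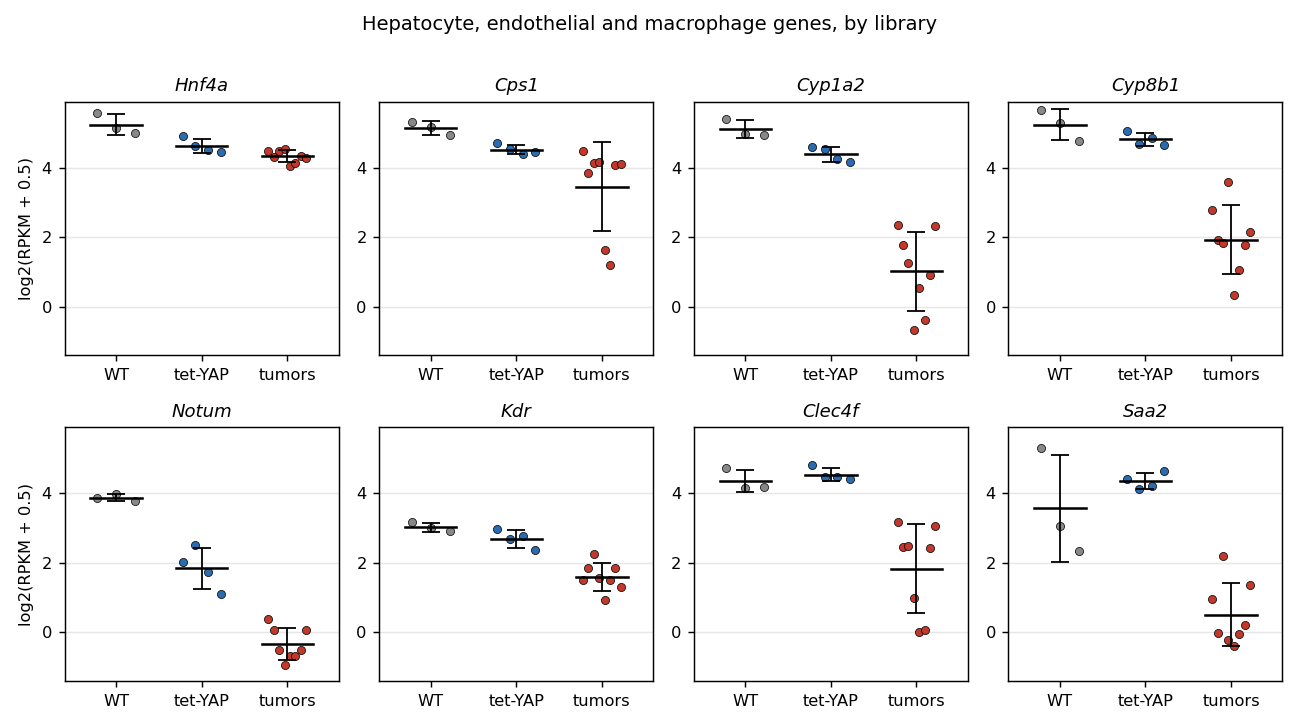
Levels of 8 genes as log2(RPKM + 0.5) in WT (3), tet-YAP (4) and tumor (8) libraries, with 1 point per library, the group mean as a line and the SD as a bar. Hnf4a overlapped between tet-YAP livers and tumors, Cps1 was low in tumors 5 and 6, and Cyp1a2, Cyp8b1, Notum, Kdr, Clec4f and Saa2 were below the tet-YAP range in all 8 tumors.

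Urea cycle and amino acid catabolism genes were lower for 15 of 22 members and higher for 0, at a median of -0.97. The count depended on the model, with 8 lower after rescaling, 5 with the sex covariate, and 6 and 7 without tet-YAP library 1 or 2. Near the ceiling lay 14 of the 22. Otc, the ornithine carbamoyltransferase, was at 18.5, 15.4, 14.4 and 13.2 RPKM at 4 weeks and at 1.64 to 7.89 RPKM, median 4.81, in them (-1.65 ± 0.24, adjusted p = 3.8e-05). Ass1, the next enzyme of the cycle, was at 12.7 to 16 RPKM and then at 6.49 to 12.1 RPKM (-0.61 ± 0.13, and -0.48 without tumors 5 and 6), and Oat, the ornithine aminotransferase, fell by 1.47. Cps1, the entry enzyme, was at 2.56 and 1.78 RPKM in tumors 5 and 6 and at 13.8 to 21.7 RPKM in the other 6 tumors, beside 20.5 to 25.7 RPKM in tet-YAP livers (-1.07 ± 0.47, adjusted p = 0.087).

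In glucose metabolism 8 of 24 genes were lower and 2 higher, and 2 and 0 with the sex covariate. Near the ceiling lay 14 of the 24. Without tet-YAP library 1, 4 were lower, and without library 2 or 3, 1 was higher. Over all genes tested, 15.5% were lower and 9.89% higher, and 9.3% and 8.2% with the covariate. The liver pyruvate kinase Pklr fell by 1.47 on the log2 scale. G6pc, the last step of glucose release, fell by 1.98 (adjusted p = 0.085 with the covariate). The lactate exporter Slc16a3 was at 0.379 to 0.662 RPKM at 4 weeks and rose to 9.25, 11.7 and 11.6 RPKM in tumors 4, 5 and 6, while the other 5 lay between 0.719 and 2.93 RPKM (1.85 ± 0.54, adjusted p = 0.012, and 0.054 with the covariate). In fatty acid synthesis 10 of 16 were lower and 1 higher (median -0.83; 9 and 1 with the covariate). Acacb, the mitochondrial acetyl-CoA carboxylase, was at 3.66, 5.88, 1.83 and 1.82 RPKM and then at 0.0541 to 0.336 RPKM (-2.38 ± 0.23, adjusted p = 4.4e-07), and malic enzyme Me1 fell by 1.67. The regulator Srebf1 did not pass (-0.42 ± 0.16, adjusted p = 0.055), but did without tet-YAP library 4 (-0.58, adjusted p = 0.013). In cholesterol synthesis 10 of 17 were lower (median -0.57; 5 with the covariate), among them Sc5d, a late step of the pathway, which fell by 0.98. In fatty acid oxidation 8 of 16 were lower (median -0.57; 6 with the covariate), with Cpt2 and Cpt1a, the carnitine palmitoyltransferases, down by 0.93 and 0.69. Acute phase genes were lower for 8 of 15 and higher for 1 (median -0.51, and 5 and 1 with the covariate). Saa1, a near copy of Saa2 that may share its reads, fell by 3.36, and the paralog Saa3 fell by 2.07.

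Markers of the other liver cells moved as well, and their part in the results above was not tested. Endothelial markers were lower for 13 of 18 members and higher for 1 (median -1; 11 and 1 with the sex covariate), and their summed level was 87.3 to 118 RPKM in tet-YAP livers and 33.6 to 86.7 RPKM in tumors. Kdr, a VEGF receptor, was at 7.3, 5.88, 6.27 and 4.62 RPKM and then at 1.4 to 4.25 RPKM, median 2.39 (-1.09 ± 0.18, adjusted p = 1.6e-04), and the sinusoidal marker Oit3 fell by 1.87. Wnt2, a ligand made by sinusoidal endothelium, was at 0.585 to 1.23 RPKM and then at 0.00832 to 0.245 RPKM (-1.24 ± 0.16). Pecam1, which marks endothelium of all vessels, did not pass (-0.37 ± 0.2, adjusted p = 0.15). Among macrophage markers 5 of 17 were lower and 3 higher (median -0.43), with a summed level of 222 to 294 RPKM in tet-YAP livers and 94.3 to 182 RPKM in tumors. The count of lower genes was 8 without tumor 6. The 5 that fell mark resident Kupffer cells, while the 3 higher were Trem2, Gpnmb and Ccr2, named here after their values were seen. Clec4f was at 27.4, 21.5, 21.7 and 21 RPKM and then at 0.509 to 8.55 RPKM, median 4.95 (-2.7 ± 0.49, adjusted p = 2.9e-04), Timd4 fell by 3.41, Cd5l by 2.41, Vsig4 by 2.38 and Marco by 2.27. Neutrophil markers rose for 7 of 9 members and fell for 0 (median 1.87; 4 with the covariate). S100a8 was at 1.47 to 3.7 RPKM in tet-YAP livers, at 19.2 to 20.8 RPKM in tumors 1, 2, 7 and 8 and at 3.28 to 11.4 RPKM in the others (2.03 ± 0.43, adjusted p = 0.0012), and S100a9, its partner, rose by 1.94. The granule genes Ngp and Camp rose by 3.01 and 2.47. The summed neutrophil level was 5.89 to 10.7 RPKM in tet-YAP livers and 11.5 to 75.6 RPKM in tumors. The collagen genes Col1a1 (0.93 ± 0.37, adjusted p = 0.061) and Col1a2 (0.53 ± 0.23, adjusted p = 0.089) did not pass, although Col1a1 did with the covariate and both did after rescaling, and Col1a1 did without tet-YAP library 4 (1.26) or tumor 5 (1, adjusted p = 0.05). The stellate and fibroblast list had 2 of 16 higher and 1 lower, 4 and 1 with the covariate, and 6 higher without tumor 5.

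Other members were called against the direction of their list and are named after their values were seen: the water channel Aqp1 was lower among biliary markers, and Abcc4, an efflux pump, Scd2, a desaturase, Socs3, a brake on cytokine signaling, and Cd34, a vascular antigen, were higher among bile acid, fatty acid synthesis, acute phase and endothelial genes. The Cd34 call was lost without tet-YAP library 2 or 4 or tumor 2, and the Socs3 call without any 1 of 8 of the 12 libraries.

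The tumors differed among themselves. The mean log2 level of the cytochrome P450 list, relative to the tet-YAP mean, was -3.09 in tumor 6, -2.74 in tumor 5 and -2.09 in tumor 4, and between -1.55 and -0.69 in the other 5. The urea cycle list gave -2.15 and -1.63 in tumors 6 and 5 and -0.82 to -0.32 elsewhere. Tumor 5 had the highest mitosis mean (1.21) and tumor 3 the lowest (-0.88). Neutrophil means were 2.49 to 2.57 in tumors 1, 2, 7 and 8 and 0.24 to 1.3 in the other 4. The oncofetal mean was above 1 in all 8 tumors, from 1.36 in tumor 3 to 2.85 in tumor 4. Without tumors 5 and 6, 8.8% of all genes were higher and 16.1% lower, and the lists gave 13 of 17 P450 genes, 11 of 22 urea cycle genes, 14 of 18 endothelial markers and 10 of 17 macrophage markers as lower, and 10 of 14 oncofetal genes as higher.

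**Figure D4:**
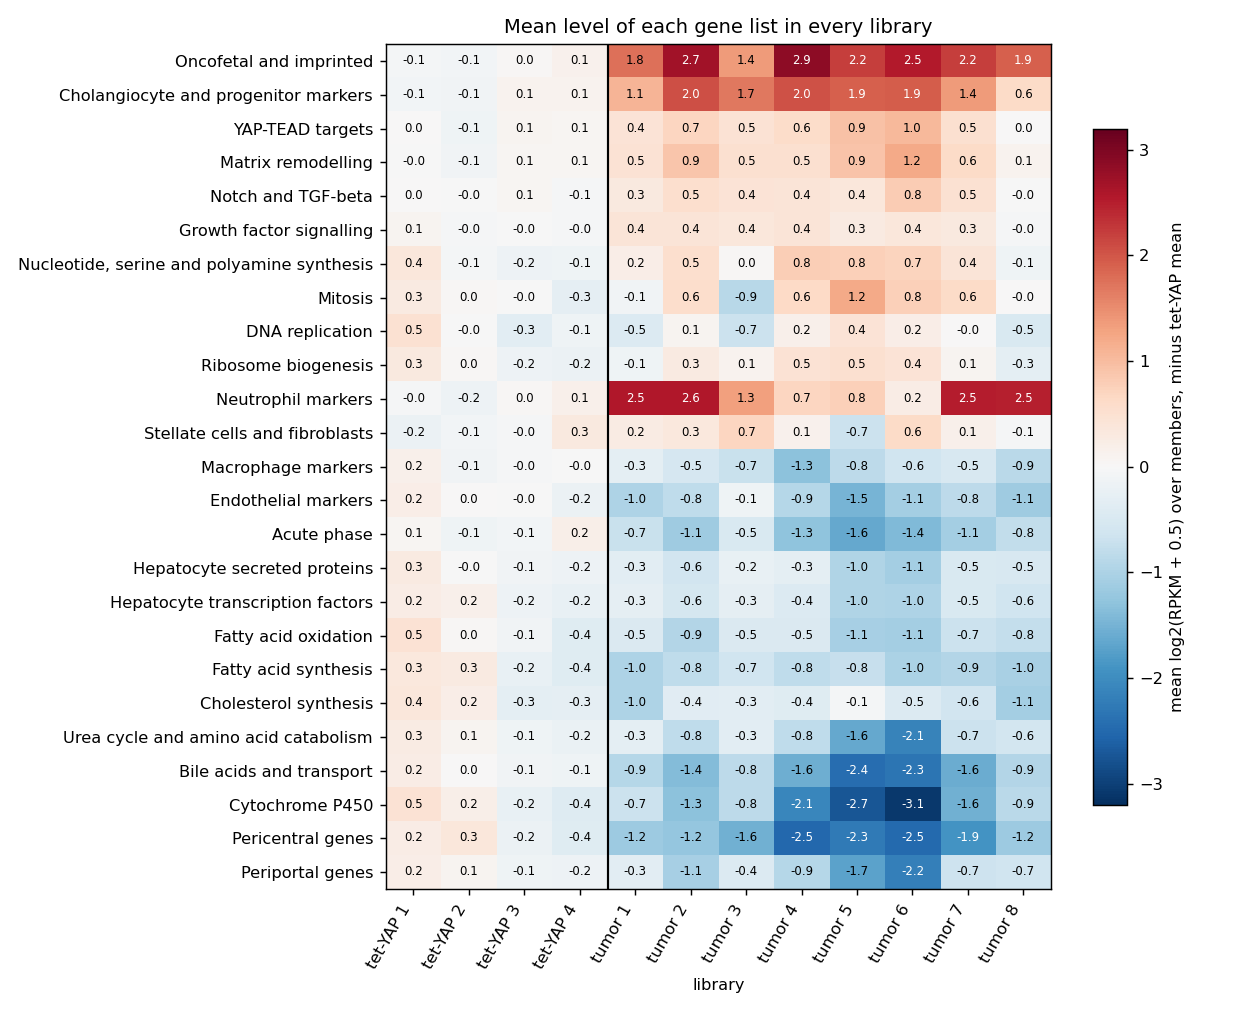
Mean log2(RPKM + 0.5) over the tested members of each gene list, relative to the mean of the 4 tet-YAP livers, in each of the 12 libraries (columns), with red for higher and blue for lower. Tumors 5 and 6 were lowest for urea cycle (-1.63 and -2.15) and P450 genes, tumors 1, 2, 7 and 8 highest for neutrophil markers, and the oncofetal row was at 1.36 or more in every tumor.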

How the data were processed

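Per the labels, total liver RNA came from RNeasy MinElute columns, and the TruSeq RNA v2 kit, which does not mark strand, was used without its poly-T bead step. TopHat2 2.0.8, featureCounts 1.4.5-p1, SAMtools and the mm9 build are listed in the submitters' processing notes. The authors deposited RPKM per gene and library; the tables of the R26 system, 1 of them with the authors' fold changes, adjusted p-values and calls, were not used. Of 21671 genes, 27 whose symbols had become dates were dropped. Since columns name only the group, library numbers follow column order. Among 16780 low values, 98.3% lay within 0.12 of a whole read, which put the RPKM denominator at 34700000 to 46900000 reads in tet-YAP livers and 41200000 to 56800000 in tumors.

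The filter kept genes that reached 1 RPKM in 3 or more libraries, and values were tested as log2(RPKM + 0.5). All 21 libraries of the LAP system were fitted with group means in limma 3.58.1 (lmFit, eBayes with trend) under R 4.3.3, with both directions tested, with Benjamini-Hochberg adjustment over all genes tested. Figures were made with matplotlib. The fit was tested on simulated data. Male or female pattern was read from Xist and 4 Y-linked genes. Within the tet-YAP and tumor groups, Pearson r between libraries across 8460 genes was at most 0.983, with no repeat library to compare it with. The tet-YAP livers fell into closer pairs, libraries 1 and 2 (r = 0.973) and libraries 3 and 4 (r = 0.983). Between these pairs r was 0.936 to 0.947. The labels do not say what the paired libraries share, and the effect on the p-values was not tested. Genes near the ceiling were those above 0.5 times the sixth-highest gene of any of the 12 libraries, 969 in all.

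The members of 41 lists (658 of 661 genes found) and the comparison itself were chosen with earlier results of these data known. Named genes were Myc and Yap1, the 12 highest and 12 lowest called genes whose groups did not overlap and that reached 1 RPKM, and from each list the first 3 members and up to 5 with the smallest adjusted p, so that named list members lean toward those that changed. Gene models without a given name, ribosomal pseudogenes and small RNAs were left out of the 24. Alternatives covered the pseudocount, filter, scaling, sex pattern, ceiling, fold threshold and each library. Some genes are not reported here.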

Additional observations from a re-analysis of the deposited data

Results flagged for a closer look

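In 18 of 284 sets of values (142 named genes in the 4 tet-YAP livers and in the 8 tumors), 1 library stood far from the others of its group by Dixon's ratio on the log2 scale. Chance flags about 1 in 20 sets. Each value below is the RPKM of that library.

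Tumor 3 was the lowest for Lrp2 (2.94), Mki67 (3.78), Phgdh (5.02) and Igf2bp1 (1.3), against 6.34, 7.78, 8.78 and 4.99 in the next tumor. Tumor 4 was the highest for Igf2 (35.7) and the lowest for Ccnd1 (3.35). Tumor 4 was also the shallowest of the 8 tumor libraries and had the highest ceiling (38.6 RPKM). Igf2 lay near the ceiling in tumors, and whether its high value in tumor 4 follows depth was not tested. Tumor 5 was the lowest for H19 (11.9, next 27.8) and for Cdkn1c (0.573, next 4.84), both imprinted genes, and the only tumor with Elovl3 above 0 (0.00956). Tumor 6 was the highest for Cdkn2b (7.13, next 2.25) and Col1a1 (12.1, next 6.1). Tumor 8 was the lowest for Ankrd1 (10.1, next 14.2).

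Among the tet-YAP livers, library 1 was the highest for Wwtr1 (8.55), Cd44 (8.02), Clec4f (27.4) and Vsig4 (23.2). Library 1 was also the shallowest of the 4. Library 2, the only one with the female pattern, was the lowest for Hsd3b5 (1.53, next 13.9), and library 4 was the highest for Epcam (1.05, next 0.448).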

How the results depend on the processing

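The count of genes higher in tumors was 1245, and 1056 to 1435 when each library was left out in turn. It was 469 when genes had to reach 5 RPKM in 3 libraries, where fewer genes were tested, 215 with female-pattern libraries alone and 649 at an absolute log2 difference of 1. The count of lower genes was 1954, and 1551 to 2099 without each library. It was 1171 with the sex pattern as covariate, 1193 with this covariate on rescaled libraries, 359 with female-pattern libraries alone and 742 at an absolute log2 difference of 1. The female-pattern fit holds 1 tet-YAP library, assumed to vary like the other groups. The combined fit and the one without tumors 5 and 6 (1108 higher, 2022 lower) were chosen after seeing the data. No gene called in the main comparison was called in the opposite direction under any alternative.

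Of 142 named genes, 62 were called higher, 61 lower and 19 not called. Of the called ones, 50 kept their call under every alternative that tested them, the fold threshold of 1 aside. Mki67, at -0.03, read 0.08 after rescaling, 0.17 after quantile normalization, 0.25 with the sex covariate, 0.30 with both and -0.14 to 0.13 without each library. Top2a read -0.06 without tumors 5 and 6 together. Neither was called in any of these fits. No paired analysis was possible because the columns carry no replicate numbers. Stage and sex cannot be told apart in 3 of the 4 tet-YAP livers, and depth limits genes under 1 RPKM.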

Other observations

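In the stress response list 3 of 15 genes were higher, all of them known from the response to amino acid shortage. Asns, the asparagine synthetase, was at 1.33, 0.253, 0.453 and 1.03 RPKM in tet-YAP livers and at 2.15 to 12 RPKM, median 7.19, in tumors (2.47 ± 0.48, adjusted p = 5.8e-04 by limma). It was above every tet-YAP liver in all 8 tumors, and tumors 4, 5 and 6 were the highest at 11.6 to 12 RPKM. Ddit3 rose by 0.8 (adjusted p = 0.025) and Trib3 by 1.06 (adjusted p = 0.032), and neither passed with the sex covariate (adjusted p = 0.063 and 0.12) or without tet-YAP library 3 (0.051 and 0.082) or 4 (0.091 and 0.1), nor did Trib3 without tumor 4, 5 or 6 (0.053 to 0.055). The other 12 genes were not called, and the list median was -0.07.

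Antigen presentation genes gave 0 of 13 higher and 1 lower, and interferon-stimulated genes 0 of 16 higher and 3 lower, with medians of -0.42 and -0.44. With the sex covariate these medians were -0.01 and -0.09, and 0 and 1 genes were lower. The mean log2 interferon level, relative to tet-YAP livers, was -0.87 in the male-pattern WT liver and -0.95 and -1.09 in the female-pattern ones. With both Myc and YAP transgenes it was -0.1 in the male-pattern liver and -1.56 and -1.63 in the female-pattern ones. For antigen presentation the WT values were 0.5, -0.01 and -0.17 in the same order. Whether the shifts with the covariate reflect sex was not tested. Of 14 lymphocyte markers 2 reached the filter, and their summed level was 5.07 to 9.05 RPKM in tet-YAP livers and 2.27 to 9.16 RPKM in tumors. The p53 target list changed with the model, from 1 of 18 higher and 3 lower to 7 and 0 after rescaling, 4 and 1 with the sex covariate and 11 and 0 with both, and the count of higher genes ran from 0 to 5 as single libraries were left out.

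For genes known as female-biased in mouse liver, the summed level was 3.83 to 38 RPKM in the 8 tumors, while in tet-YAP livers it ran from 8.98 to 135 RPKM. Of 11 such genes 1 was lower without and 9 were lower with the sex covariate, at a median of -3.13. Male-biased genes were lower for 10 of 12, and with the covariate 7 were lower and 1 higher. Lipid storage genes gave 2 of 13 higher and 3 lower (2 and 2 with the covariate), immediate early genes 1 of 10 higher and 0 lower (3 and 0 with the covariate), and erythroid markers 1 of 4 higher and 0 lower.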
